A study of Mus musculus with 6 samples.

Results

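The autophagy machinery was followed here through 36 genes that build the autophagosome, conjugate its ubiquitin-like proteins and capture its cargo. They are a list of gene symbols, chosen for their roles and with earlier results of these data known. Each was read by the probe with the highest mean log2 intensity over the 6 arrays among probes that carry its symbol alone. Such a probe was found for 34 of the 36 genes, out of 19057 genes in all, and Atg14 and Optn were not analysed here. Of these 34, 32 passed the filter on dim probes and were tested, among 11843 genes tested in all.

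The source of RNA was B cells isolated from spleen, taken from inbred C57BL/6 mice that were 8 weeks old. The study asked which transcripts differ after the antigen receptor of B cells is engaged. In 3 samples the receptor had been cross-linked with goat antibody fragments against mouse IgM (anti-IgM) at 2.5 µg/ml for 3 h, and 3 samples were labelled untreated. Interleukin 4 (5 ng/ml) and CD40L (200 ng/ml), both of which stimulate B cells, appear in the protocols too, but not with the samples that had them, so any effect of these cannot be told apart from that of anti-IgM, and what the untreated cells received is not known here.

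Autophagy delivers cytoplasm, damaged organelles and protein aggregates to the lysosome inside a double membrane. A kinase complex around ULK1 starts the process, a lipid kinase complex around Beclin 1 marks the membrane with PI3P, and conjugation enzymes attach small proteins of the ATG8 family (LC3 and GABARAP) to the growing membrane, where they bind cargo receptors such as p62. The kinase mTORC1, which is active in growing cells, holds the ULK1 complex in check. In the B lineage autophagy is known for its part in the upkeep of memory B cells and plasma cells.

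The 6 Illumina bead arrays, 1 per sample, carry 45281 probes, and the authors' normalized intensities had a median of 72.8 on every array. Values are log2 intensities, or log2 changes, anti-IgM minus untreated, given ± their standard error (SE) by limma (n = 3 per group). The number of arrays limits the precision, and the median SE over genes tested was 0.15. The lowest intensity on any array was 34.4, so changes of dim genes are compressed, and levels of different probes are not compared. Along the second principal component, replicate 1 of each group was separate from replicates 2 and 3. In bulk RNA, fewer cells of a type cannot be told from less RNA per cell.

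With 0.05 as the limit on limma's adjusted p, 3 of the 32 autophagy genes tested rose with anti-IgM and 13 fell. Among all genes tested 47.1% were called, 23.2% higher and 23.9% lower. One of the 13, Atg9a, passed the filter on dim probes through its untreated samples alone and so had to differ. Without genes of that kind 3 of 31 autophagy genes rose and 12 fell, against 23.0% higher and 23.5% lower among 11587 genes. The share of autophagy genes called, 50.0%, lay near that background, while 9.38% of them were higher and 40.6% lower. Their median log2 change was −0.16, against 0.02 over all genes tested. The genes that rose were Gabarapl1, Atg4d and Atg16l1. Those that fell were Atg10, Uvrag, Atg13, Atg16l2, Pik3r4, Gabarap, Map1lc3b, Atg9a, Nbr1, Pik3c3, Wipi2, Atg12 and Atg3. A change of at least 2-fold was reached by Gabarapl1 upward, where 9.38% of all genes tested rose that much, and by Atg10, Uvrag and Atg13 downward, where 10.5% of all genes fell that much. The groups did not overlap in 17 of the 32 autophagy genes tested, against 54.8% of all genes tested. These were the 16 called genes and Atg7.

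With the replicate number as a block, 6 autophagy genes rose and 13 fell. The additional genes called higher were Atg2b, Ambra1 and Sqstm1. Without the replicate 1 arrays of both groups, 6 of 31 genes tested rose and 12 fell, the additions then being Atg2b, Sqstm1 and Atg4b. In that fit 2808 of all 10742 genes tested rose and 2890 fell. Leaving out untreated replicate 1 alone gave 5 of 31 higher, with Atg2b and Ambra1 added, where 2740 of all 11412 genes tested rose.

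Markers of B cells and of other spleen cells were read on the same arrays. All 10 B cell markers with a probe were above the array median on all 6 arrays, and 8 of them fell. Their summed linear intensity was 56826 to 62056 in anti-IgM samples and 87920 to 98508 in untreated samples. Cd74, the brightest, was not called and gave 43531 to 46314 of the sum with anti-IgM and 40829 to 48085 without. The other B cell markers summed to 13118 to 15742 with anti-IgM and 47090.5 to 55846.6 without. In other lists too 1 bright marker carried much of the sum. T cell markers summed to 1858 to 2232 with anti-IgM and 2396 to 2662 without, but Cd8b1, the 1 of 8 tested that fell, gave 1119 to 1281 of the sum with anti-IgM and 1671 to 1895 without. The other T cell markers summed to 657 to 951 with anti-IgM and 686 to 767 without. Above the array median on all 6 arrays were 3 of 9 T cell and 5 of 8 macrophage markers with a probe. Sums of dim markers hold background, which limits what similar sums can show. Macrophage markers summed to 738 to 790 with anti-IgM and 905 to 1168 without, with 1 of 7 tested, Adgre1, lower, and with Adgre1 left out to 667 to 686 in anti-IgM and 623 to 747 in untreated samples. Dendritic cell markers summed to 2965 to 4133 with anti-IgM and 4663 to 7175 without. Of 5 tested, Zbtb46 and Bst2 rose and Cst3 fell, while Xcr1 passed the filter through its untreated samples alone and was at least 1.16-fold lower. Without Cst3, the brightest, the dendritic sums were 1182 to 1397 with anti-IgM and 967 to 1118 without. NK cell markers summed to 2409 to 4671 with anti-IgM and 2006 to 5869 without, and to 676 to 723 with and 539 to 560 without once Prf1, the brightest, was left out. Of 5 NK cell markers tested Nkg7 rose 2.30-fold (adjusted p = 0.000748, limma) and Klrd1 fell by 0.78 ± 0.15 (adjusted p = 0.00111, limma). Neutrophil markers summed to 942 to 1156 with anti-IgM and 1075 to 2021 without, with 2 of 6 lower. Of erythroid and platelet markers limma called 0 of 5 and 0 of 4, with 1 and 0 at an unadjusted p under 0.05. Markers above the array median on none of the arrays were Cd8a, Ncr1, Gzmb, Vsig4, Itgax, Ccr9, Clec10a, Retnlg and Gp1bb. The part of these shifts in the changes of autophagy genes was not tested.

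**Figure D1:**
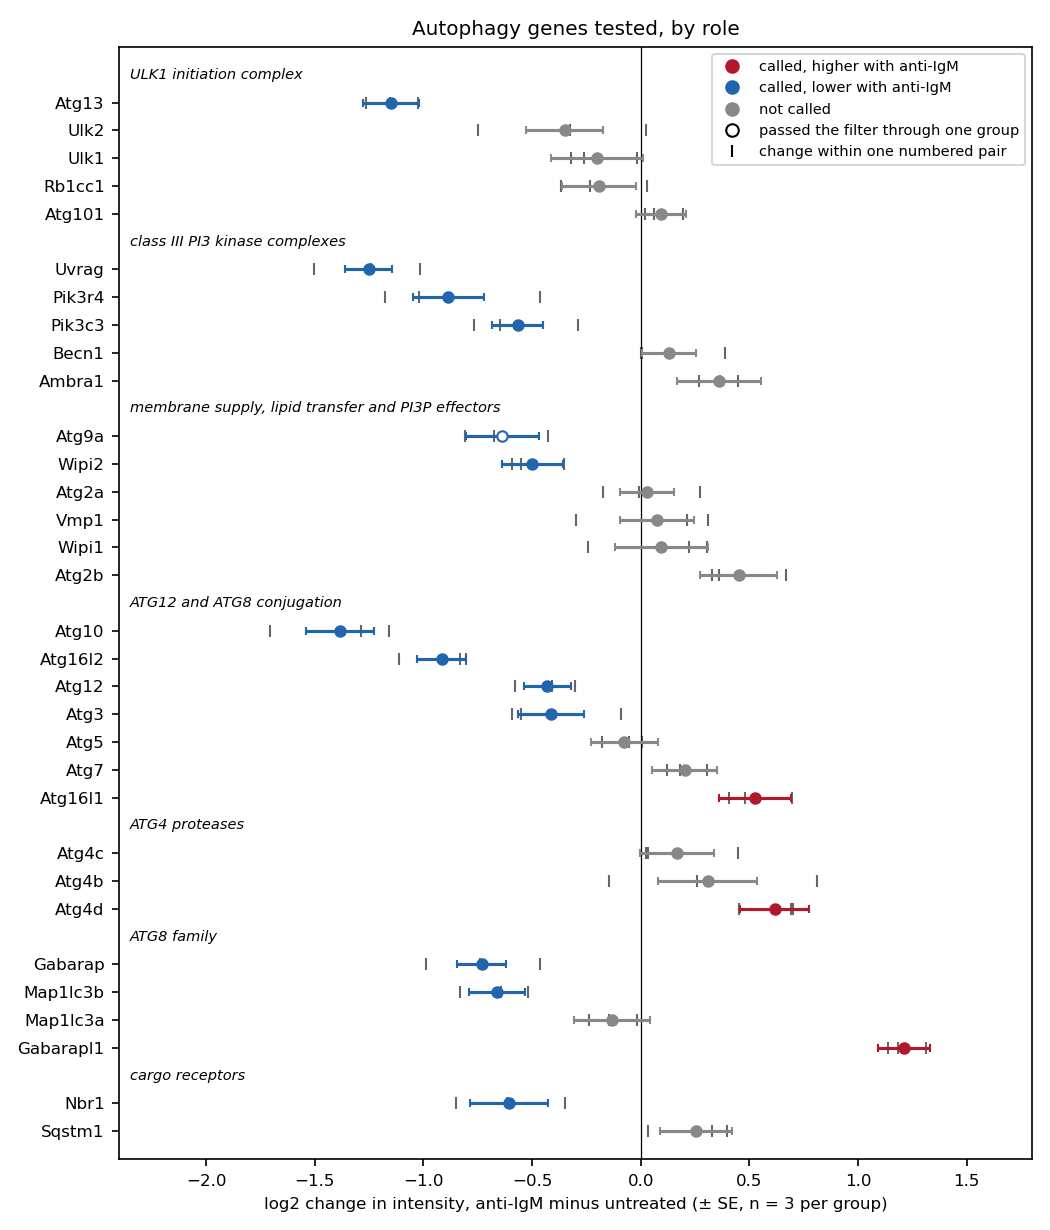
Log2 change in intensity, anti-IgM minus untreated, of the 32 autophagy genes tested, grouped by role, with bars of ± SE from limma (n = 3 per group) and black ticks for the change within each of the 3 numbered pairs. The open point, Atg9a, passed the filter on dim probes through one group alone. Red and blue points passed the test, and 13 lie left of 0 and 3 right of it, from Atg10 at −1.38 to Gabarapl1 at 1.21.

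The ATG8 family held the largest rise and moved in both directions. Gabarapl1, whose protein coats autophagosomes and binds receptors, had log2 intensities of 9.95, 10.08 and 9.91 in anti-IgM samples, against 8.64, 8.90 and 8.77 in untreated samples. Every anti-IgM sample lay above every untreated one, a rise of 2.32-fold (1.21 ± 0.12; adjusted p = 1.12e-05, limma). Gabarap, its close relative, read 12.32, 12.35 and 12.45 with anti-IgM and 13.06, 13.34 and 12.92 without, so all anti-IgM samples lay below all untreated ones. It fell by 0.73 ± 0.11 (adjusted p = 0.000293, limma). Map1lc3b, which encodes LC3B, the form most used as an autophagosome marker, stood at 8.25, 8.27 and 8.41 in anti-IgM samples and at 8.89, 9.10 and 8.93 in untreated samples. Its groups were apart as well, and it fell by 0.66 ± 0.13 (adjusted p = 0.00145, limma). Map1lc3a, for LC3A, did not pass the test (−0.13 ± 0.17). Gabarapl2 was not tested, since 0 of its 3 anti-IgM values and 2 of its 3 untreated values exceeded the array median.

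Because Gabarapl1 and Gabarap moved apart, the stretches before their RefSeq gene starts are shown, 250 bases each, 5′ to 3′ on the strand of the gene, from the GRCm38.p6 promoter table. The Gabarapl1 stretch is chr6:129532942-129533191 (+ strand) and the Gabarap stretch chr11:69991120-69991369 (+ strand). They had 46.8% and 46.4% G or C, with 12 CG dinucleotides before Gabarapl1 and 6 before Gabarap. Neither holds the sequence CACGTG or GTAAACA, so no letters are in capitals.
Gabarapl1: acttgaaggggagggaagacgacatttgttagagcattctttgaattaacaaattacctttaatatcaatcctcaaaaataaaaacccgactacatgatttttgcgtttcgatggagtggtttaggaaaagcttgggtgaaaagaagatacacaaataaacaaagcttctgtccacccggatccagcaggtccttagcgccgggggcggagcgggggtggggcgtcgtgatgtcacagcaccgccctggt
Gabarap: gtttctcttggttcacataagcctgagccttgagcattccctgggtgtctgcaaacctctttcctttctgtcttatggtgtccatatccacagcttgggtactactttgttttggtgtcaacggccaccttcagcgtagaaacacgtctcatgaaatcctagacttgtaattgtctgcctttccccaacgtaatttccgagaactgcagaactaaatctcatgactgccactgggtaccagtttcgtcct

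Among the ATG4 proteases, which trim ATG8 proteins before conjugation and free them afterwards, Atg4d rose. Atg4d read 9.93, 9.52 and 9.46 in anti-IgM samples, against 9.24, 8.82 and 9.01 in untreated samples, with no overlap (0.62 ± 0.16; adjusted p = 0.0086, limma). Its 3 dimmer probes did not pass (0.27, 0.10 and −0.05), and with the mean over its tested probes the change was 0.23 and was not called (adjusted p = 0.157, limma). The differences for Atg4b (0.31 ± 0.23) and Atg4c (0.17 ± 0.17) did not pass the test. Untreated samples spread widely for Atg4b, from 6.22 to 7.22, and without both replicate 1 arrays it was called higher (0.53 ± 0.21; adjusted p = 0.0328, limma). A second probe of Atg4c fell by 0.42 ± 0.13 (adjusted p = 0.022, limma, over all probes), so the probes of this gene disagree. Atg4a, under the array median on all 6 arrays, was not tested.

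Of 7 conjugation genes tested 4 fell (57.1%, against 23.9% of all genes tested) and 1 rose (14.3%, against 23.2%). Atg10, the enzyme that transfers ATG12 to ATG5, had 7.68, 7.80 and 7.39 in anti-IgM samples, against 8.83, 9.09 and 9.09 in untreated samples. The groups were far apart, and this was the largest fall among the 32 members tested, 2.61-fold (−1.38 ± 0.16; adjusted p = 3.35e-05, limma), and a dimmer second probe fell too (−0.62 ± 0.15). Atg12, the ubiquitin-like protein itself, fell by 0.43 ± 0.11 (adjusted p = 0.00709, limma). Atg3, the enzyme that transfers ATG8 proteins to lipid, fell by 0.41 ± 0.15 and only just passed (adjusted p = 0.0458, limma). The call did not survive when untreated replicate 2 (adjusted p = 0.170) or 3 (0.0769) or anti-IgM replicate 1 (0.137) or 2 (0.106) was left out, and with the replicate block it passed (adjusted p = 0.00471). Atg7, the activating enzyme of both conjugation systems, gave 0.20 ± 0.15, and Atg5, the acceptor of ATG12, −0.08 ± 0.15. Neither passed, although the 3 anti-IgM values of Atg7 lay just above the 3 untreated ones.

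The ATG16L genes moved in opposite directions. Atg16l1, the partner that places the ATG12 and ATG5 conjugate on the membrane, read 10.95, 10.32 and 10.54 in anti-IgM samples and 10.26, 9.84 and 10.14 in untreated samples. It rose by 0.53 ± 0.17 (adjusted p = 0.0237, limma), and replicate 1 was the highest sample in each group. The call was lost without untreated replicate 2 (adjusted p = 0.0973) or 3 (0.0556) or without anti-IgM replicate 1 (0.0650), and held with the replicate block (adjusted p = 5.15e-05). Atg16l2, its paralogue, had 9.98, 9.80 and 9.73 in anti-IgM samples, against 10.81, 10.60 and 10.84 in untreated samples. With no overlap between groups it fell by 0.92 ± 0.11 (adjusted p = 6.25e-05, limma).

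In the ULK1 complex 1 of 5 members fell (20%, against 23.9% of all genes tested) and none rose. Atg13, which encodes a subunit of the complex, had 8.00, 7.83 and 8.06 in anti-IgM samples, against 9.15, 9.09 and 9.08 in untreated samples. Each group was tight, the groups did not overlap, and the fall was 2.22-fold (−1.15 ± 0.13; adjusted p = 3.14e-05, limma). The kinase genes Ulk1 (−0.20 ± 0.21) and Ulk2 (−0.35 ± 0.18) did not pass, and Ulk2 was called lower only when untreated replicate 3 was left out (−0.51; adjusted p = 0.0432). The scaffold gene Rb1cc1, for FIP200, was dim, with 1 of 3 samples per group under the array median, and was not called (−0.19 ± 0.17). Nor was Atg101, which stabilizes ATG13 (0.09 ± 0.11).

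The lipid kinase complexes had 3 of 5 members lower (60%, against 23.9% of all genes tested). Uvrag, a subunit of the form that acts on endosomes and late autophagosomes, read 10.74, 10.52 and 10.74 in anti-IgM samples, against 11.99, 12.02 and 11.76 in untreated samples. With the groups well apart it was 2.38-fold lower (−1.25 ± 0.11; adjusted p = 4.64e-06, limma), and of its other probes one fell by 1.09 ± 0.25 and one did not pass (−0.42 ± 0.19). Pik3c3, the catalytic subunit VPS34, had 10.25, 9.88 and 9.99 with anti-IgM and 10.54, 10.65 and 10.64 without, again with no overlap, and fell by 0.57 ± 0.12 (adjusted p = 0.00208, limma). Pik3r4, the regulatory subunit VPS15, stood at 6.13, 6.33 and 6.52 in anti-IgM samples, where 2 of 3 were above the array median, and at 7.30, 7.34 and 6.98 in untreated samples. All anti-IgM values were below the untreated ones. Pik3r4 fell by 0.89 ± 0.16 (adjusted p = 0.00103, limma), and by 1.58 with the 1st percentile of each array subtracted as background. The kinase, its regulatory subunit and the UVRAG subunit fell together.

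Becn1, which encodes Beclin 1, the scaffold of these complexes, was not called by its brightest probe (0.13 ± 0.12). Values were 11.95, 11.86 and 11.75 in anti-IgM samples, against 11.95, 11.47 and 11.75 in untreated samples, so the groups overlapped. Its 2 dimmer probes both rose, by 0.59 ± 0.17 (adjusted p = 0.017) and 0.49 ± 0.17 (adjusted p = 0.0411, limma over all probes), and the mean over its probes passed (0.40; adjusted p = 0.00996). Ambra1, a scaffold that links Beclin 1 to upstream signals, was not called (0.36 ± 0.19; adjusted p = 0.159). It passed with the replicate block (adjusted p = 0.00661), being higher with anti-IgM in each of the 3 numbered pairs, and without untreated replicate 1 (0.52; adjusted p = 0.0393).

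Of the 6 genes for membrane supply, lipid transfer and PI3P binding, 2 were called lower (33.3%, against 23.9% of all genes tested). None was called higher, against 23.2% of all genes. The 2 were Wipi2 and Atg9a, which has only a bound. Atg9a, the scramblase whose vesicles seed the membrane, had 6.17, 5.81 and 6.07 in anti-IgM samples, none of them above the array median, against 6.97, 6.48 and 6.50 in untreated samples. That the groups did not overlap was fixed by the filter, which let Atg9a in through its untreated samples alone. So only a bound is given, at least 1.38-fold lower, taken against the array median where a value lay below it. A second Atg9a probe, also above the array median in untreated samples alone, had a bound of 1.05-fold and was not called (adjusted p = 0.18, limma over all probes). Wipi2, a PI3P reader that recruits ATG16L1, fell by 0.50 ± 0.14 (adjusted p = 0.0129, limma) and was no longer called once untreated replicate 3 (adjusted p = 0.0536) or anti-IgM replicate 2 (0.0521) was dropped. Of its dimmer Wipi2 probes one fell by 0.54 ± 0.17 and one was not called (0.00 ± 0.17; adjusted p = 0.997). Atg2b, a lipid transfer protein, was not called (0.45 ± 0.18; adjusted p = 0.0598). Its values were 10.68, 9.98 and 10.16 with anti-IgM and 10.02, 9.62 and 9.83 without, replicate 1 being highest in both groups, which overlapped. The difference passed with the replicate block (adjusted p = 0.000478), without untreated replicate 1 (0.0294), without anti-IgM replicate 2 (0.0291) and by its second probe (0.54 ± 0.16; adjusted p = 0.019). Atg2a (0.03 ± 0.12), Wipi1 (0.09 ± 0.21) and Vmp1 (0.07 ± 0.17), an ER protein needed for membrane growth, were not called. One of 3 dimmer Vmp1 probes tested rose by 0.41 ± 0.13 (adjusted p = 0.0255, limma over all probes).

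Cargo receptors gave 1 fall among 2 members tested, where 23.9% of all genes tested fell. Nbr1, a receptor for ubiquitinated cargo, had 7.35, 7.07 and 6.88 in anti-IgM samples, against 7.70, 7.92 and 7.50 in untreated samples. The gap between groups was small, and the fall of 0.61 ± 0.18 (adjusted p = 0.0169, limma) was lost without untreated replicate 2 (adjusted p = 0.0763) or anti-IgM replicate 2 (0.0543) or 3 (0.0652). Its second probe fell by 0.67 ± 0.21. Sqstm1, which encodes p62, read 11.29, 11.96 and 11.84 in anti-IgM samples and 11.26, 11.57 and 11.52 in untreated samples. Replicate 1 was lowest in both groups and the groups overlapped (0.25 ± 0.17; adjusted p = 0.252, limma). The difference passed with the replicate block (adjusted p = 0.0243), without anti-IgM replicate 1 (0.46 ± 0.12; adjusted p = 0.00725) and without both replicate 1 arrays (0.36 ± 0.10; adjusted p = 0.00332).

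**Figure D2:**
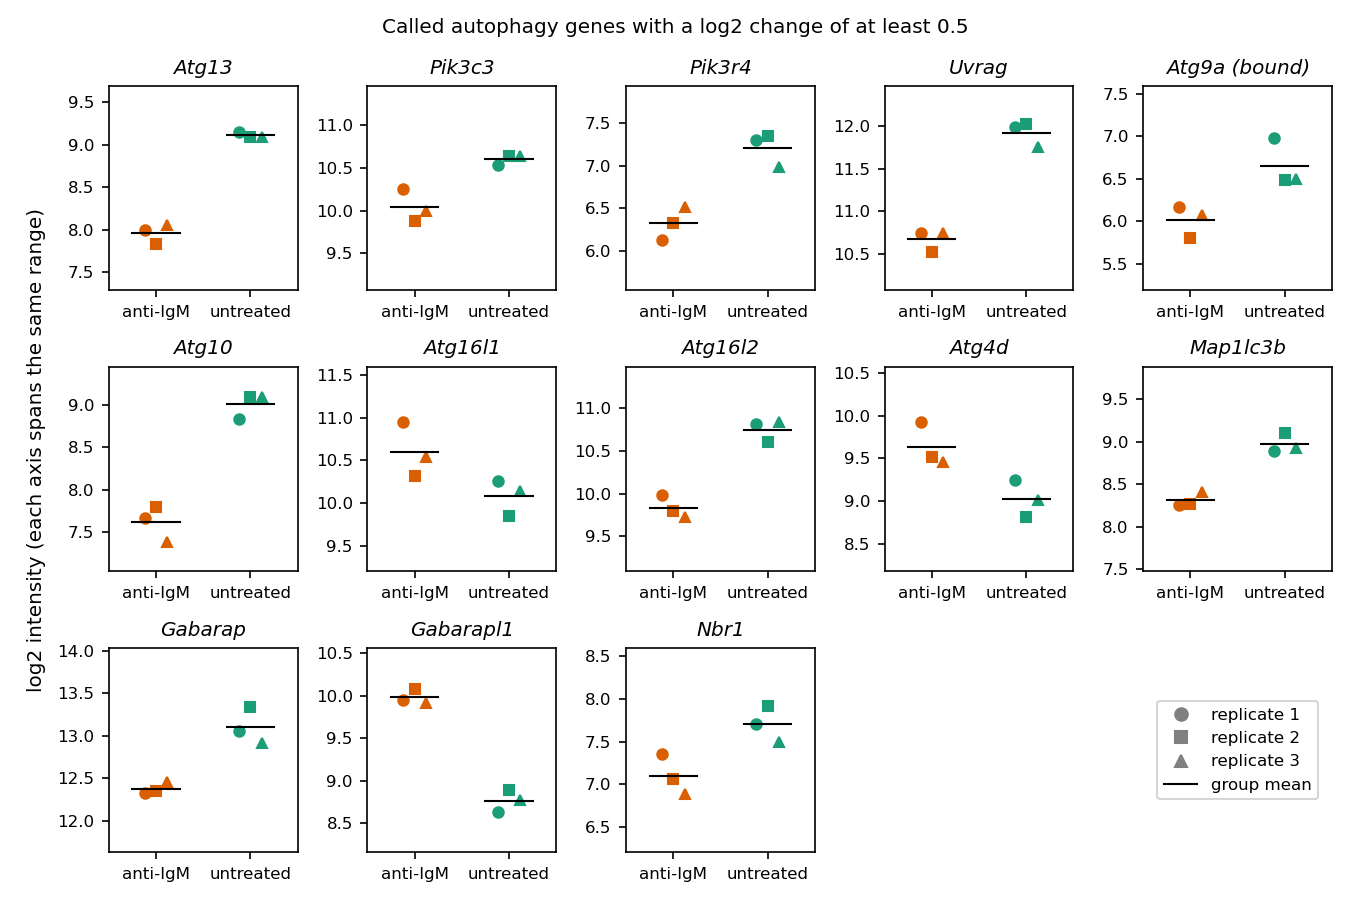
Log2 intensity on every array of the 13 called autophagy genes whose log2 change was at least 0.5, anti-IgM samples left and untreated samples right, with symbols for replicates 1 to 3 and a line at each group mean (n = 3). Atg9a is marked as a bound, and its groups had to be apart because of the filter. Every axis spans the same range, and in each panel the 3 anti-IgM points lie wholly above or wholly below the 3 untreated points, above in Gabarapl1, Atg16l1 and Atg4d.

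Within families, the change of one member was set against that of its relative on the same arrays for 10 pairs of paralogues, a comparison chosen after the values were seen. The log2 ratio of Gabarapl1 to Gabarap differed by 1.94, anti-IgM minus untreated, and within the numbered pairs by 2.05, 2.17 and 1.60. For Gabarapl1 over Map1lc3b the difference was 1.87, for Atg16l1 over Atg16l2 it was 1.44 and for Map1lc3a over Map1lc3b 0.53. An exact two-sided permutation test gave p = 0.1 for each of these, the smallest that 3 against 3 samples allow, and 0.25 after Benjamini-Hochberg adjustment over the 10 pairs, so none could pass. The ratios of Ulk1 to Ulk2 (0.15; exact p = 0.6), Atg2b to Atg2a (0.42; exact p = 0.2), Wipi1 to Wipi2 (0.59; exact p = 0.2) and those among the ATG4 genes (0.14 to 0.45; exact p from 0.2 to 0.5) could not pass either.

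The 250 bases before Atg3 are shown because Atg3 alone among the members has the palindrome TCACGTGA in its promoter window, a sequence that the lysosomal regulator TFEB is known to bind. They lie at chr16:45158579-45158828 (+ strand, GRCm38.p6, RefSeq), and the capitals mark CACGTG, of which the first copy starts 94 bases before the gene start and the second lies within TCACGTGA.
Atg3: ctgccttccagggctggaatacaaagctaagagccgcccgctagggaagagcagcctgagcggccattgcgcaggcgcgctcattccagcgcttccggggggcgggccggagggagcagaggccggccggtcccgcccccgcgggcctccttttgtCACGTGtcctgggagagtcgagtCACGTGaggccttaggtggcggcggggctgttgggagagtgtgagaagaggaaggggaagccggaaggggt
Promoter windows of 300 bases were at hand for 30 of the 36 members, and each motif was sought on both strands. CACGTG was in the windows of 4 members, Atg3, Atg5, Atg7 and Atg14, which is 13.3% of those with a window, against 8.09% of 27025 genes in all. Every TCACGTGA also counts as a CACGTG, and the longer form was found in 1.12% of all genes. GTAAACA, a sequence bound by FOXO factors, was in the window of none of the 30 members and of 4.05% of all genes. These matches are a description of the letters in the windows.

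Genes that act with the machinery were read from 4 further lists of 90 genes, of which 82 were tested. In all 14 of them rose and 35 fell, against 23.2% higher and 23.9% lower among all genes tested, and their median log2 change was −0.30. One of the 14, Atg9b, passed the filter on dim probes through its anti-IgM samples alone. Without genes of that kind 13 of 81 rose, against 23.0% of 11587 genes. Without anti-IgM replicate 2, 9 of 80 rose and 31 fell, where 2367 of all 11405 genes tested rose and 2532 fell. With the replicate block 17 of 82 rose and 41 fell, against 3120 and 3278 of 11843 genes. Without both replicate 1 arrays 15 of 78 rose and 37 fell, against 2808 and 2890 of 10742 genes.

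**Figure D3:**
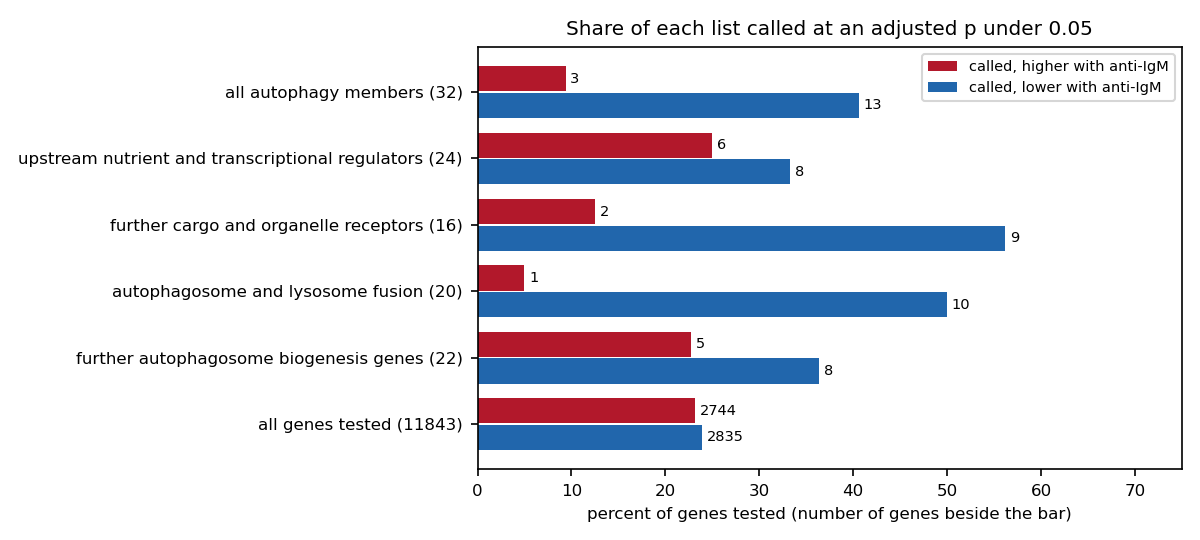
Percent of the genes tested in each list that were called higher (red) or lower (blue) with anti-IgM, with the number of genes beside each bar and the number tested in brackets. Autophagy members are at the top (3 higher, 13 lower of 32) and all 11843 genes tested at the bottom (23.2% higher, 23.9% lower).

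Of 20 genes of fusion between autophagosome and lysosome, 10 fell and 1 rose. These are 50% and 5%, against 23.9% and 23.2% of all genes tested. Rubcn, which encodes Rubicon, an inhibitor of the UVRAG form of the lipid kinase complex, was 8.22-fold lower (−3.04 ± 0.18; adjusted p = 3.18e-07, limma). Plekhm1, an adaptor between lysosomes and ATG8 proteins, fell by 1.90 ± 0.12, and by 1.10 with the mean over its tested probes. Vamp8, a SNARE of the fusion step, fell by 1.67 ± 0.12 and the GTPase gene Rab24 by 1.23 ± 0.12. The member that rose was Ykt6, another SNARE (0.40 ± 0.11; adjusted p = 0.0144, limma), a call that was lost without untreated replicate 3 (adjusted p = 0.0663) or anti-IgM replicate 2 (0.0692).

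Further receptors of cargo and organelles fell in 9 of 16 genes tested (56.2%, against 23.9% of all genes) and rose in 2 (12.5%, against 23.2%). Ccpg1, a receptor for autophagy of the endoplasmic reticulum, was 5.99-fold lower (−2.58 ± 0.12; adjusted p = 6.53e-08, limma). The mitochondrial receptor genes Bnip3l (−1.78 ± 0.12) and Fundc1 (−1.33 ± 0.10) fell, as did Tax1bp1, a relative in function of p62 (−1.07 ± 0.18). Ncoa4, the receptor that delivers ferritin, rose by 0.90 ± 0.20 (adjusted p = 0.00392, limma), and Phb2, an inner membrane protein of mitochondria, by 0.57 ± 0.11.

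Among 22 further genes of autophagosome formation, 5 were called higher (22.7%, near the 23.2% of all genes tested) and 8 fell (36.4%, against 23.9%). One of the 5 is Atg9b, a relative of Atg9a that was above the array median in none of the untreated samples, with a bound of at least 1.35-fold higher. Rubcnl, for the protein Pacer, a partner of UVRAG, was 11.4-fold lower (−3.52 ± 0.12; adjusted p = 1.62e-08, limma). Trp53inp1 fell by 2.31 ± 0.17 while its relative Trp53inp2 rose by 1.48 ± 0.26, and both encode proteins that bind ATG8. Wdr45, a WIPI family gene, fell by 1.63 ± 0.13, and its paralogue Wdr45b rose by 0.76 ± 0.15. Bcl2, an inhibitor of apoptosis that also binds Beclin 1, fell by 1.97 ± 0.20, or by 1.11 with the mean over its tested probes, whereas Bcl2l1, which encodes the relative BCL-XL, rose by 1.42 ± 0.15. Tmem41b, an ER scramblase that works with VMP1, rose by 1.02 ± 0.20.

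Upstream regulators had 6 of 24 genes higher (25%, near the 23.2% of all genes tested) and 8 lower (33.3%, against 23.9%). Rheb, the GTPase that activates mTORC1, rose by 1.06 ± 0.13 (adjusted p = 5.55e-05, limma) and Rptor, the mTORC1 subunit raptor, by 0.97 ± 0.15. The 2 other tested probes of Rptor did not pass (0.12 and −0.13), and the mean over its probes changed by 0.32. Among inhibitors of mTORC1, Sesn1 was 9.92-fold lower (−3.31 ± 0.11; adjusted p = 1.62e-08, limma), Ddit4 fell by 2.37 ± 0.14 and Sesn3 by 1.06 ± 0.20. Sesn2 rose by 0.78 ± 0.16, and its 2 other tested probes did not pass (0.14 and −0.06). Foxo1, a transcription factor of resting lymphocytes that activates autophagy genes, fell by 2.24 ± 0.15. Tfe3, a relative of TFEB, rose by 0.56 ± 0.17 (adjusted p = 0.0228, limma), a call lost without untreated replicate 2 (0.0802) or 3 (0.0943) or anti-IgM replicate 1 (0.0733) or 2 (0.0515). Tfeb itself was dim and fell by 0.52 ± 0.13 (adjusted p = 0.00635, limma), with 1 of its 3 anti-IgM values above the array median.

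**Figure D4:**
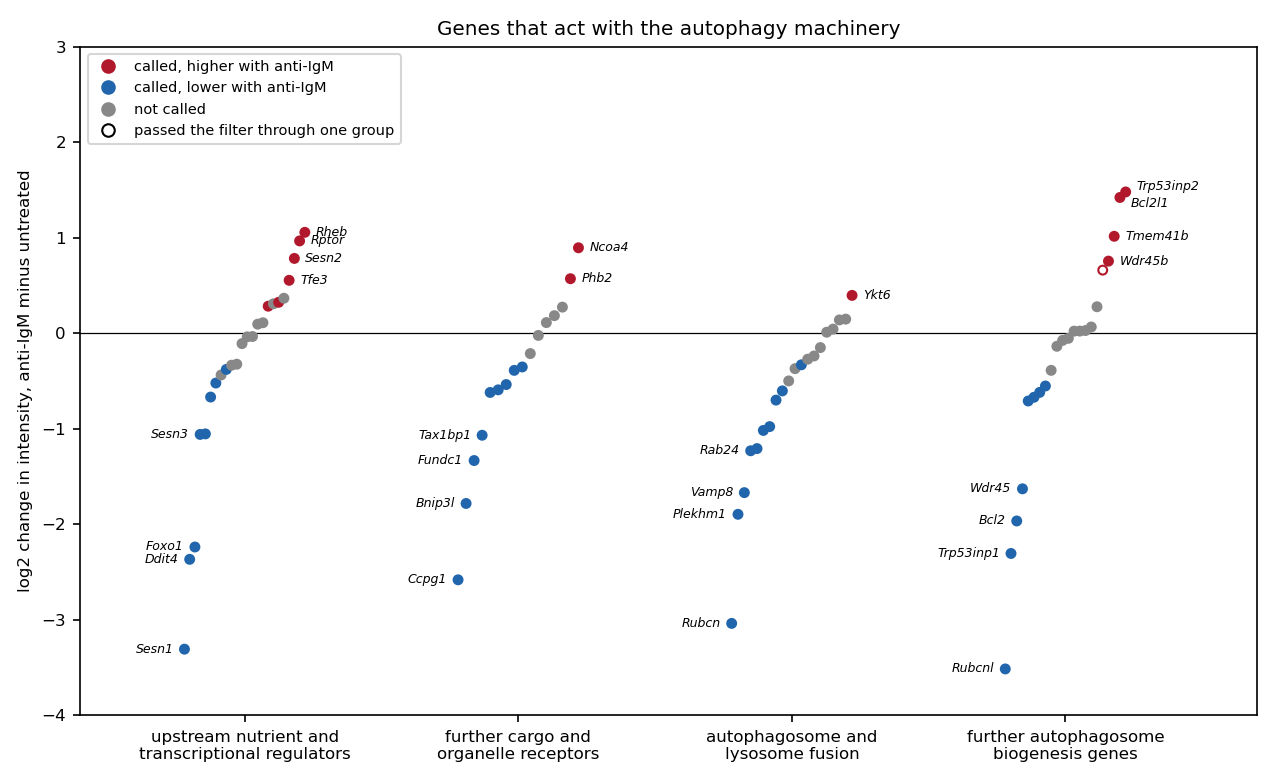
Log2 change in intensity, anti-IgM minus untreated, of the 82 genes tested in the 4 lists that act with the machinery, sorted within each list, with up to 4 called genes named in each direction and Atg9b, which passed the filter through one group alone, as an open point. Rubcnl (−3.52), Sesn1 (−3.31) and Rubcn (−3.04) lie lowest and Trp53inp2 (1.48) and Bcl2l1 (1.42) highest.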

How the data were processed

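RNA was isolated with Trizol and RNeasy kits and converted to biotin-labelled cRNA (Ambion kit), per the labels' protocols. The authors deposited 1 intensity per probe and array on a linear scale, already normalized between arrays, as the near-equal quantiles show. The sources used here do not give their normalization method. A second table of non-normalized signals, with 6 columns whose names match no sample label, was not used.

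Intensities were taken as log2. Genes were tested whose probe exceeded the median of its array on 3 or more of the arrays in the fit, 6 unless some were left out. Probe symbols came from the platform annotation (34885 probes with 1 symbol, 18 with several, 10378 not listed), of which 34807 matched RefSeq (GRCm38.p6) by Entrez ID and none needed an update (0). The groups, anti-IgM and untreated, came from sample titles. The test was limma's moderated one (limma 3.58.1 under R 4.3.3), two-sided, its prior variance following intensity, with Benjamini-Hochberg adjustment over the 11843 genes or 23505 probes tested. The fit was checked on simulated data. Plots were made in matplotlib 3.10.9 (Python 3.11.15).

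The labels number the replicates of both groups 1 to 3. Deviations from the group means correlated at 0.60, 0.27 and 0.32 for pairs 1, 2 and 3. Untreated replicate 2 with anti-IgM replicate 3 gave 0.39, and untreated replicate 3 with anti-IgM replicate 2 gave 0.11. Pairs 2 and 3 are thus not told from their exchange. Whether the numbers pair those samples is not settled here, and the fit with the replicate block takes it as given. Nothing says that replicates came from separate mice, so the spread behind the p-values is that of these 6 samples and may be technical.

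The members and lists were chosen with earlier results of these data known. All members are accounted for. Values on every array are given for called members with a log2 change of at least 0.5 and for a few others whose call depends on the fit or the probe, chosen after their values were seen. Up to 4 called genes per direction are named in each further list. Atg9b, Tfeb and the markers named were chosen after their values were seen, as were the counts without genes that passed the filter through 1 group alone and the sums without the brightest marker. Protein sequences were not used here.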

Additional observations from a re-analysis of the deposited data

How the results depend on the processing

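Under the other settings the number of autophagy genes called higher, 3 in the fit with group alone, was 6 with the replicate block, 6 without replicate 1 of both groups and 1 when limma's treat tested against a change of 0.5. The number called lower, 13, was 4 with treat and between 10 and 13 otherwise. Among all 11843 genes tested, treat called 1334 higher and 1443 lower, against 2744 and 2835 in the fit with group alone. The share of the 32 autophagy genes called lower with treat thus lay near that of all genes tested. Leaving out 1 array gave 2 to 5 higher and 10 to 12 lower. For the 4 further lists, 14 higher and 35 lower, leaving out 1 array gave 9 to 15 higher and 31 to 37 lower. Among all genes tested in those fits, 11380 to 11412, it gave 2367 to 2740 higher and 2490 to 2836 lower. Over the 16 settings other than treat and the 32 genes, 460 results kept their direction and side of the threshold, 15 missed the threshold, 14 passed it newly and 16 changed sign. Of the 16 called genes, 11 kept their call in each of those 16 settings that tested them, which leaves out treat, and Atg9a was not tested once an untreated array was left out. The exceptions were Atg3, Atg16l1, Nbr1, Wipi2 and Atg4d. Atg3 also missed the threshold with no filter on dim probes (adjusted p = 0.0618) and without the intensity trend (0.0526). The changes of sign were all in genes not called. With 1 array left out, the log2 change ran from −0.36 to 0.017 for Ulk1, from −0.0022 to 0.15 for Atg101, from −0.062 to 0.12 for Atg2a, from −0.12 to 0.21 for Wipi1, from −0.088 to 0.29 for Vmp1 and from −0.22 to 0.055 for Atg5. Without both replicate 1 arrays, Atg2a was −0.093 and Wipi1 −0.0097. With the mean over probes, Atg2a was −0.082, Wipi1 −0.074, Atg5 0.0053 and Atg4c −0.13, and with array weights Atg2a was −0.014. Of 432 results for the 27 named pathway genes, Atg9b and Tfeb aside, 425 were as reported and 7 missed the threshold, among them Sesn2 with the mean over probes (0.29; adjusted p = 0.0702). Beyond Atg2b, Ambra1 and Sqstm1, the replicate block changed no call among the 32 genes. The causes were not tested. Signal near background limits Atg9a, Pik3r4, Rb1cc1, Atg4a and Gabarapl2.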
